A study of Homo sapiens with 6 samples.

Results

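The comparison described here is that of Jeko cells carrying an NR4A1 guide with Jeko cells carrying none, read across 7610 genes of the 25277 in the deposited table. Jeko is an established human mantle cell lymphoma line, a B-cell cancer line with high cyclin D1, and NR4A1 is an orphan nuclear receptor of the NR4A family. All Jeko cells used carried Cas9 and a tetracycline-inducible (tet-on) vector. In the control the vector was empty, and in the other cells it encoded 1 of 2 NR4A1 guides (sgRNA 1 and sgRNA 2). Every culture, control included, received doxycycline for 48 h and grew in RPMI1640 with fetal bovine serum and antibiotics. Each condition was 1 library of total RNA, so the comparison rests on 3 libraries with a single control. The sources used here do not say whether the stable lines are clones or pools. The title of the series gives its purpose as the combination of NR4A1 inhibition with ibrutinib, an inhibitor of Bruton's tyrosine kinase. The labels of these libraries name no ibrutinib.

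A gene was a member where its mean over the 3 Jeko libraries was at least 5 FPKM (fragments per kilobase of transcript, scaled to the mapped fragments of the library) and its symbol did not begin with SNOR, SCARNA, MIR or HIST. ABCB6, at a mean of 5.004 FPKM, was the member nearest the threshold, and VPS54, at 4.998, was the nearest gene outside. Of the 7610 members, 7374 are annotated as protein-coding, 132 as something else, mostly long noncoding RNAs, and 104 had no match in the annotation. The symbol rule therefore lets in some noncoding RNAs, which are named as such where they appear. NR4A1 itself, at a mean of 4.78 FPKM, and NCR3LG1 lie under the threshold and are given for reference only.

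NR4A1 belongs to the immediate early genes, which are transcribed within minutes of a stimulus without new protein synthesis. In B cells it is induced by antigen receptor signalling. That signal runs from the receptor through the kinases LYN, SYK and BTK to the phospholipase PLCG2, which releases calcium and activates NFAT, NF-kB and the RAS-MAPK cascade. Mantle cell lymphoma cells depend on this route and on cyclin D1, and they home to lymphoid tissue through chemokine receptors and integrins whose signals RGS proteins shorten.

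The library labelled Rec-1 control, an empty-vector control named for another mantle cell lymphoma line, serves only as a second reference. Its expression over the members was closer to the Jeko control (Pearson r 0.987) than to the 2 libraries labelled Rec-1 NR4A1 sgRNA (0.819 and 0.828). The libraries labelled Rec-1 thus did not group together, and whether any of these labels is wrong was not tested. The Rec-1 control is called the second reference library below. Between the Jeko control and the sgRNA libraries r was 0.954 and 0.949, and between the 2 sgRNA libraries 0.960. The depth of the libraries is unknown because the table holds FPKM only. From the value that a single fragment takes at very low genes, sgRNA 1 had 0.872 times the depth of the Jeko control, and sgRNA 2 and the second reference library each had 1.10 times. Between 31.5% and 35.2% of those genes shared the step. Of 9 B-cell and mantle cell lymphoma markers, 8 were at 1 FPKM or more in all 4 libraries, CCND1 (cyclin D1) highest at 442 to 815 FPKM, while CD5 was under 0.1 FPKM in each. Markers of myeloid, epithelial and erythroid cells summed to at most 1.18 FPKM per library, those of fibroblasts to 1.55 to 3.65 and those of T cells to 11.04 to 13.3, of which LCK, a kinase also found in lymphoma B cells, gave most.

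The guided gene itself differed little. NR4A1 (ENSG00000123358, GRCh37 chromosome 12, 52416616 to 52453291) was at 5.99 FPKM in the Jeko control, 3.89 in sgRNA 1, 4.44 in sgRNA 2 and 11.6 in the second reference library. Both sgRNA libraries lay below both references, at 64.9% and 74.1% of the Jeko control. The mean difference on the log2(FPKM + 1) scale was −0.44 (SD 0.11, n = 2), with an exact permutation p of 0.333, two-sided, the smallest that the 3 arrangements of 3 libraries allow. Transcripts of NR4A1's length had a running median of −0.10 and −0.13 in the same comparisons. Small deletions made by Cas9 need not lower a transcript, so the level does not measure how many alleles were cut. Each library pools a whole culture, so fewer cells with a transcript and less of it per cell cannot be told apart, here and below.

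All differences below are between an sgRNA library and the Jeko control on the log2(FPKM + 1) scale unless stated, which understates the change of genes near 1 FPKM. A member was called higher or lower where it differed at least 2-fold on that scale the same way in both sgRNA libraries. That was so for 101 members (1.33% of 7610), 66 higher (0.867%) and 35 lower (0.46%). Both sgRNA libraries are set against the same control, so a value particular to that library moves both differences alike. Against each of the 2 reference libraries, 37 members (0.486%) were at least 2-fold higher in both sgRNA libraries and 29 (0.381%) at least 2-fold lower. Of the called members, 53 higher (0.719% of protein-coding members) and 25 lower (0.339%) were protein-coding genes. The 2 reference libraries differed 2-fold from each other at 47 members (0.618%).

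Few members passed a test. limma with Benjamini-Hochberg adjustment over the 7912 genes fitted, 2 sgRNA libraries against the Jeko control with 1 residual degree of freedom, called 1 member, EGR1 (0.0131%), and 544 members had an unadjusted p under 0.05 (7.15%). With the second reference library beside the Jeko control and 2 residual degrees of freedom, limma called 2 members, CDK10 and RPL21 (0.0263%), and 2017 had an unadjusted p under 0.05 (26.5%). The 2 sgRNA libraries carry different guides, and limma treated them as replicates of 1 condition. Against the Jeko control alone the spread comes from these 2 libraries, and the lone control is assumed to vary like them. With both references it also takes in the difference between 2 controls labelled as different lines. These p-values therefore measure only the spread between the libraries. The minimum mean of 5 FPKM also bears on the calls. Of the 66 members called higher, 31 were under 5 FPKM in the Jeko control, and of the 35 called lower, 8 were under 5 FPKM in both sgRNA libraries. Such members reached the minimum only through the side where they were high, so they had to differ. EGR1 is among them, and with a minimum of 1 FPKM, which it passes in all 3 libraries, limma with Benjamini-Hochberg adjustment gave it an adjusted p of 0.0521. CDK10 and RPL21 were above 5 FPKM in all libraries. Counts of members higher or lower in both guides by any amount are therefore given below as descriptions, to be read against 37.0% of all members higher in both and 38.1% lower.

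The broadest pattern went with transcript length. Long transcripts were higher and short transcripts lower in both sgRNA libraries. Members were divided into 5 equal groups by length. In the shortest group, with a median of 1146 nucleotides, the median difference was −0.35 in sgRNA 1 and −0.42 in sgRNA 2. In the middle group it was 0.01 and −0.02, and in the longest group, with a median of 6763 nucleotides, 0.40 and 0.38. Of the longest group 73.3% were higher in both sgRNA libraries and 10.3% lower, and of the shortest 6.99% and 76.2%. The calls followed the same order. The longest group held 31 members called higher and 0 called lower, and the shortest held 7 and 22. Across 7506 members with an annotated length, Spearman's rho of difference and length was 0.578 and 0.545 for the 2 guides, a description over genes that share libraries. Against the second reference library it was 0.469 and 0.538, while between the 2 references it was 0.0695 and between the 2 guides 0.0372. The relation to length thus separated both sgRNA libraries from both references. The guides and other differences between these libraries cannot be told apart in this design, because neither reference carries a guide and both sgRNA libraries do. The GC content of the transcript went with the differences too (rho −0.286 and −0.236), more weakly after the length trend was taken out (−0.148 and −0.0898).

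**Figure D1:**
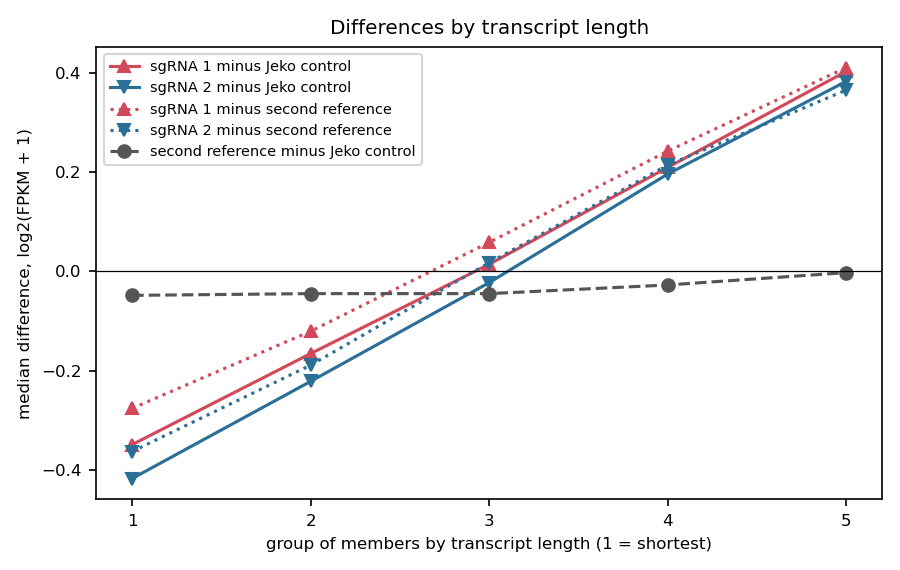
Median difference on the log2(FPKM + 1) scale (vertical axis) in each of 5 equal groups of members by transcript length (horizontal axis, shortest first), for each sgRNA library against the Jeko control (solid) and the second reference library (dotted), and for the 2 references against each other (dashed). The sgRNA lines climb from their lowest points among the shortest transcripts (−0.35 and −0.42) to 0.40 and 0.38 among the longest, and the line between the references stays within 0.05 of 0.

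For this reason a length-adjusted difference, left after subtracting the running median of 501 members of like length, is given below for most lists and for the members with a test. After adjustment 32 members (0.426% of 7506) were 2-fold higher and 19 (0.253%) 2-fold lower in both sgRNA libraries.

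The protein-coding members furthest above the Jeko control were the immediate early genes EGR1 and FOS. EGR1, a zinc-finger transcription factor (GRCh37 chromosome 5, 137801168 to 137804992), was at 2.12 FPKM in the Jeko control, 33.7 in sgRNA 1, 32.0 in sgRNA 2 and 25.7 in the second reference library. The Jeko control was thus the low library, and the others lay close together. EGR1 differed by 3.44 (SE 0.21) in limma with Benjamini-Hochberg adjustment, adjusted p 0.0406, against the Jeko control alone, with the limit of the minimum given above, and with both references by 1.89 (SE 1.06), adjusted p 0.314. FOS, the AP-1 subunit (GRCh37 chromosome 14, 75745529 to 75748933), had the same profile, at 1.05, 17.3 and 15.4 FPKM in the control, sgRNA 1 and sgRNA 2, and 19.1 in the second reference library. Its difference was 3.08 (SE 0.22, limma with Benjamini-Hochberg adjustment, adjusted p 0.0583, or 0.0594 with a minimum of 1 FPKM, since FOS too reached 5 FPKM only through the sgRNA libraries), and against the second reference library FOS was lower, by −0.14 and −0.29. The upstream bases of EGR1 are shown because CArG boxes, the sites of serum response factor, stand in them in a pair, printed in capitals. The 250 bases end at the transcription start (RefSeq, GRCh38.p14, chr5:138465229-138465478, plus strand).
EGR1: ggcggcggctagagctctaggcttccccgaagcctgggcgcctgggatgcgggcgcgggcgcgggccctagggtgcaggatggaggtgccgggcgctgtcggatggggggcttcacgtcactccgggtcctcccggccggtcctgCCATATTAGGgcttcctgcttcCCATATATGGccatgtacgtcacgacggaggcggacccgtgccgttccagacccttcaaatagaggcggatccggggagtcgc
A CArG box on either strand was found in 1.14% of 27305 promoters of this length and in 0.974% of the 6265 promoters matched to members. In the immediate early list it was found in 2 of 14 promoters, those of EGR1 and SRF.

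Of 15 immediate early members, 12 were higher in both sgRNA libraries (80.0%, against 37.0% of all members) and 1 was lower. The list medians were 0.44 and 0.32, against 0.00 and −0.02 over all members. After length adjustment they were 0.40 and 0.53. IER2, a small early-response protein, was at 21.8 FPKM in the Jeko control, 45.0 and 41.9 in the sgRNA libraries and 40.2 in the second reference library. ATF3, a stress-induced repressor, was the member lower in both, at 20.7, then 4.29 and 18.0, with 24.1 in the second reference library. Only 4 of the 15 lay above both references in both sgRNA libraries (31.7% of all members did), and against the second reference library the medians were −0.10 and −0.09. The list was thus high relative to the Jeko control and not relative to the other control.

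Among the proximal genes of B-cell receptor signalling, PLCG2 and the inhibitory co-receptor CD22 were called higher. PLCG2 (GRCh37 chromosome 16, 81812884 to 81996290) was at 14.0 FPKM in the Jeko control and 15.7 in the second reference library, against 46.9 in sgRNA 1 and 30.7 in sgRNA 2. Both sgRNA libraries lay well above both references, by 1.67 and 1.08 over the Jeko control. The adjusted p was 0.550 in limma with Benjamini-Hochberg adjustment on the 3 Jeko libraries and 0.102 with both references. PLCG2 has a transcript of 8666 nucleotides, and its length-adjusted differences were 1.21 and 0.63. CD22 was at 3.57 FPKM in the Jeko control, 12.8 and 8.95 in the sgRNA libraries and 6.88 in the second reference library, with length-adjusted differences of 1.53 and 1.12. CD22 reached the minimum of 5 FPKM only through the sgRNA libraries. CD72, another inhibitory co-receptor, was at 21.9 FPKM in the Jeko control and lower in both sgRNA libraries, at 8.14 and 13.5. The list as a whole did not lean one way, with 9 of 20 members higher in both sgRNA libraries (45.0%, against 37.0% of all members), 4 lower and medians of 0.14 and 0.07 (0.04 and −0.09 after length adjustment).

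Signalling routes further inside the cell differed by small amounts on the median, and not all one way. In calcium and NFAT signalling 12 of 21 members were higher in both sgRNA libraries (57.1%, against 37.0% of all members) and 2 lower, with medians of 0.26 and 0.24. Examples were ATP2A2, the calcium pump of the endoplasmic reticulum, at 30.8 FPKM in the control and 57.3 and 59.0 with guides, and NFATC3, a calcium-regulated transcription factor, at 7.58 and then 13.1 and 13.8. Both were higher after length adjustment, ATP2A2 by 0.42 and 0.47 and NFATC3 by 0.32 and 0.41, and the list then had 11 members higher and 2 lower, with medians of 0.11 and 0.08. In RAS and MAPK signalling 7 of 12 members were higher in both (58.3%), with medians of 0.10 and 0.21 (0.09 and 0.19 after length adjustment), and HRAS, with a short transcript, was lower at 33.3 FPKM and then 25.0 and 22.5. In PI3K, AKT and mTOR signalling 16 of 21 were higher in both (76.2%), near the 73.3% of the longest transcripts, and the medians of 0.38 and 0.29 became 0.05 and −0.02 after length adjustment, with 7 higher and 6 lower. NF-kB subunits and targets were split, 4 of 15 higher in both and 6 lower (medians −0.28 and −0.06, and −0.19 and 0.02 after length adjustment), with NFKB1 at 19.2 FPKM and then 27.2 and 24.3, and NFKBIB, an inhibitor subunit, at 25.4 and then 16.6 and 16.3. RXRA, which pairs with NR4A1 in other settings, was the only member among NR4A receptors and RXR partners, at 4.61 FPKM in the control and 7.16 and 9.04 with guides.

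UGCG, the enzyme that makes glucosylceramide from ceramide, was among the members with the largest differences (GRCh37 chromosome 9, 114659094 to 114697649). It was at 1.27 FPKM in the Jeko control and 1.82 in the second reference library, against 7.23 in sgRNA 1 and 7.03 in sgRNA 2. The references did not overlap the sgRNA libraries, which lay 5.68 and 5.52 times above the Jeko control. limma with Benjamini-Hochberg adjustment gave 1.84 (SE 0.22, adjusted p 0.205) against the Jeko control and 1.68 (SE 0.27, adjusted p 0.101) against both references, and length adjustment left 1.67 and 1.66. UGCG reached the minimum of 5 FPKM only through the sgRNA libraries, and with a minimum of 1 FPKM the adjusted p of the same limma tests was 0.182 and 0.0772. B4GALT5, which adds galactose in the next step of glycosphingolipid synthesis, was also called higher, at 4.80 FPKM in the Jeko control, 14.1 and 10.8 with guides and 4.38 in the second reference library (1.14 and 0.78 after length adjustment). B4GALT5 too reached the minimum of 5 FPKM only through the sgRNA libraries. SPTLC2, a subunit of the enzyme that starts sphingolipid synthesis, was at 3.68 and then 6.501 and 6.89. In the sphingolipid list 15 of 23 members were higher in both sgRNA libraries (65.2%, against 37.0% of all members) and 6 lower, with medians of 0.15 and 0.25. After length adjustment 13 were higher and 2 lower, with medians of 0.14 and 0.19.

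Most genes of cholesterol synthesis were lower than in the Jeko control. Of 20 members 16 were lower in both sgRNA libraries (80.0%, against 38.1% of all members), with medians of −0.22 and −0.44. MVK, mevalonate kinase, was at 15.3 FPKM in the control, then 6.69 and 7.07 with guides and was called lower. LSS, which closes the sterol ring, was at 13.3 and then 6.88 and 6.67, and ACAT2, which joins acetyl units at the start of the route, at 23.2 and then 12.6 and 11.97. The transcripts are not short, and after length adjustment 14 of 20 were lower in both, with medians of −0.17 and −0.26. The second reference library lay between, with MVK at 9.97, LSS at 8.97 and ACAT2 at 15.8, and 9 of the 20 were below both references (29.5% of all members were). Against it the medians were 0.12 in sgRNA 1 and −0.22 in sgRNA 2, so the direction of the list depends on the reference for sgRNA 1. HMGCS1, which makes the precursor of mevalonate, went the other way, at 8.198 FPKM and then 9.31 and 9.78. SREBF1, the regulator of fatty acid synthesis, was lower at 23.5 and then 13.5 and 11.9, with 26.7 in the second reference library.

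Among lymphoid homing receptors and RGS proteins, RGS1 and RGS2, which shorten signals of G protein-coupled receptors, were called lower and the integrin ITGA4 higher. RGS1 (GRCh37 chromosome 1, 192544893 to 192549154) was at 11.7 FPKM in the Jeko control and 22.3 in the second reference library, against 3.92 and 4.01 in the sgRNA libraries, and the groups did not overlap. limma with Benjamini-Hochberg adjustment gave −1.35 (SE 0.21, adjusted p 0.344) against the Jeko control and −1.79 (SE 0.32, adjusted p 0.102) against both references, and length adjustment left −1.03 and −0.94. RGS1 reached the minimum of 5 FPKM only through the control, and with a minimum of 1 FPKM the adjusted p of the same limma tests was 0.323 and 0.105. RGS2 was at 13.9 FPKM and then 4.95 and 3.79, but the second reference library had 5.61. RGS2 too reached the minimum of 5 FPKM only through the control. The other RGS members did not move alike. RGS16 was higher, by 0.07 and 1.28, and so was RGS19, by 0.38 and 1.24. RGS10 was lower, by −0.36 and −1.03, and RGS14 differed by −0.12 and 0.10. Against the second reference library RGS16 was lower, by −1.37 and −0.16, and RGS19 differed by −0.62 and 0.24. ITGA4 was at 6.97 FPKM in the Jeko control and 7.65 in the second reference library, against 18.2 and 15.8, and its partner ITGB1 at 46.9 and 46.6 against 80.6 and 89.9. After length adjustment ITGA4 differed by 0.86 and 0.67, under 2-fold, and ITGB1 by 0.61 and 0.79. CXCR4, the chemokine receptor that holds B cells in marrow and lymph nodes, was at 416 and 450 FPKM in the references and 620 and 665 with guides, a difference of 0.57 and 0.68, and its short transcript made this 0.80 and 0.98 after length adjustment. Of the 15 members 10 were higher in both sgRNA libraries (66.7%, against 37.0% of all members), with medians of 0.23 and 0.53 (0.19 and 0.28 after length adjustment). Against the second reference library sgRNA 1 had a median of −0.04 and sgRNA 2 one of 0.24.

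B-cell surface antigens differed gene by gene. CD24, a membrane glycoprotein with several near-identical copies in the genome, was called lower at 20.0 FPKM and then 7.30 and 4.65, but the second reference library had 4.62. TNFRSF13B, a receptor for the survival factor BAFF, was at 76.6 FPKM in the Jeko control and 90.3 in the second reference library, against 32.6 and 26.6, and was called lower. TNFRSF13C, the main BAFF receptor, was at 3.18 and 5.005 in the references and 7.34 and 7.54 with guides. CD52 was at 26.3 and then 78.5 and 47.8, with 68.1 in the second reference library. In all, 4 of 16 members were higher in both and 5 lower. Of the B-cell transcription factors TCF4, an E protein with a long transcript, was called higher, at 5.34 and 6.67 FPKM in the references and 12.6 and 14.0 with guides, and 10 of 16 members were higher in both, with medians of 0.45 and 0.42 that became 0.08 and 0.09 after length adjustment. NCR3LG1, the ligand of the natural killer cell receptor NKp30 and under the member threshold, was at 0.638 and 0.995 FPKM in the references and 4.63 and 3.91 with guides. MHC class I and peptide loading genes were higher at 4 of 6 members, B2M at 2328 and then 3136 and 2790.4 FPKM, and the peptide trimmer ERAP2 at 20.4 and then 44.04 and 32.6. The class II genes were split, 2 of 9 higher in both and 4 lower.

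**Figure D2:**
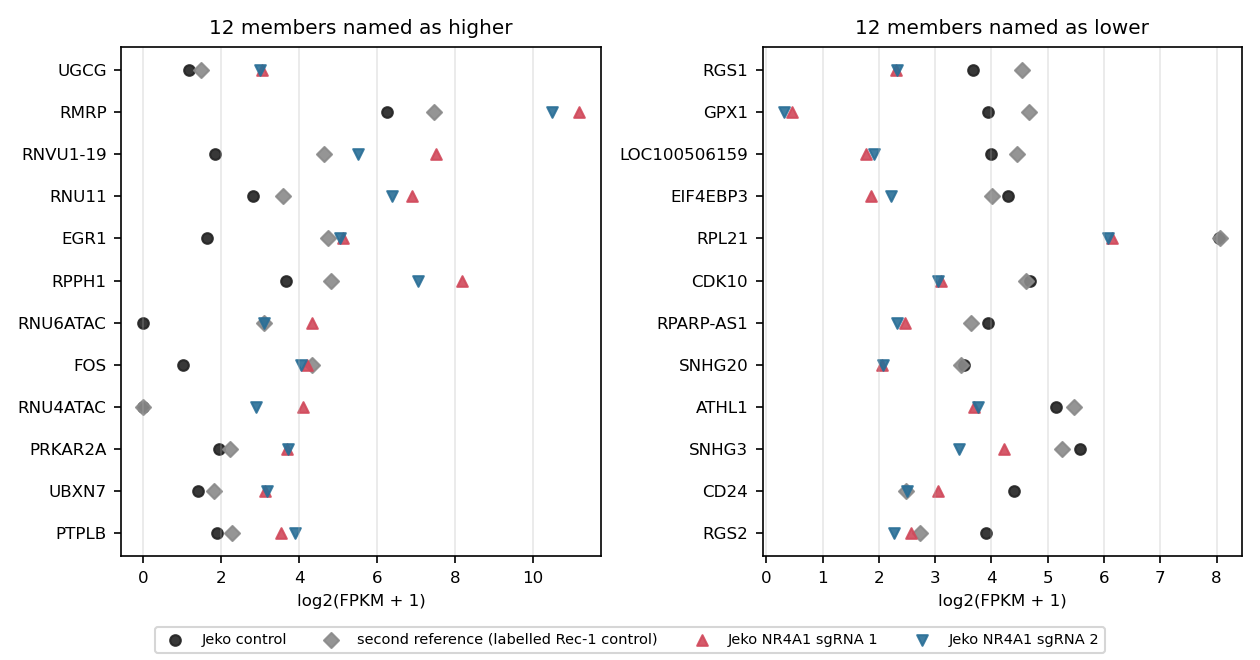
Level on the log2(FPKM + 1) scale (horizontal axis) of the 12 members named as higher and the 12 named as lower, with 1 point per library. In UGCG, PRKAR2A, UBXN7 and PTPLB the 2 sgRNA libraries lie above both references, and in EGR1 and FOS the Jeko control alone is low. In GPX1 and RGS1 both references lie above both sgRNA libraries, and in CD24 the Jeko control alone is high.

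Several of the largest differences lay outside these routes. PRKAR2A, a regulatory subunit of protein kinase A (GRCh37 chromosome 3, 48782030 to 48885307), was at 2.88 and 3.66 FPKM in the references and 11.9 and 12.2 with guides. limma with Benjamini-Hochberg adjustment gave 1.62 (SE 0.17, adjusted p 0.0825) against both references, and 1.33 and 1.36 were left after length adjustment. PRKAR2A too reached the minimum of 5 FPKM only through the sgRNA libraries, and with a minimum of 1 FPKM the same limma test gave an adjusted p of 0.0712. UBXN7, an adaptor of the p97 segregase, was at 1.66 and 2.54 against 7.72 and 8.02, and PTPLB, an enzyme of very long chain fatty acid elongation, at 2.71 and 3.90 against 10.6 and 13.9. UBXN7 and PTPLB also reached that minimum only through the sgRNA libraries. These genes were named for a large difference from the Jeko control in both guides, so that distance came with the choice. The second reference library, which the choice did not use, lay on the side of the Jeko control in each. It was close to the Jeko control over all members (Pearson r 0.987), so its place at these genes shows little. At others named by the same rule, such as EGR1, FOS, RGS2 and CD24, it lay nearer the sgRNA libraries.

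GPX1, the selenium-dependent glutathione peroxidase that removes hydrogen peroxide, was the member lowest relative to its controls (GRCh37 chromosome 3, 49394607 to 49396038). It was at 14.4 FPKM in the Jeko control and 24.4 in the second reference library, against 0.38 in sgRNA 1 and 0.25 in sgRNA 2. The sgRNA libraries held 2.64% and 1.74% of the control level. limma with Benjamini-Hochberg adjustment gave −3.91 (SE 0.33, adjusted p 0.0501) against both references and −3.55 (SE 0.27, adjusted p 0.0691) against the Jeko control, and length adjustment left −3.10 and −3.14. GPX1 reached the minimum only through the control, also where the minimum was 1 FPKM, so these tests were conditioned on its being high there. CDK10, a kinase related to the cell-cycle kinases (GRCh37 chromosome 16, 89747145 to 89762762), was at 24.7 and 23.4 FPKM in the references and 7.61 and 7.23 with guides, and fell by 1.57 on the log2 scale (SE 0.11, limma with Benjamini-Hochberg adjustment over both references, adjusted p 0.0335), with −1.37 and −1.34 left after length adjustment. CDK10 was not called against the Jeko control alone. ATHL1 was at 34.3 and 43.3 against 11.9 and 12.5. Its transcript is longer than the median, and it was named as lower both before and after length adjustment.

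Some named members are uncertain. RPL21 is a ribosomal protein gene with many processed copies and a small nucleolar RNA within it. It was at 263 and 267 FPKM in the references and 69.5 and 66.0 with guides. limma with Benjamini-Hochberg adjustment over both references gave −1.95 (SE 0.16, adjusted p 0.0454), and RPL21 was not called against the Jeko control alone. EIF4EBP3 was at 18.5 FPKM and then 2.61 and 3.62, while the readthrough transcript ANKHD1-EIF4EBP3, which covers it, went the other way at 1.81 and then 5.88 and 9.23, so both values are uncertain. LOC100506159 (14.9, then 2.40 and 2.76) had no annotation match.

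Short noncoding RNAs that the symbol rule does not remove headed the list of higher members. RMRP, the RNA of the RNase MRP particle, was at 74.6 FPKM in the Jeko control, 2302 in sgRNA 1, 1422 in sgRNA 2 and 173 in the second reference library. RNU11, RNU4ATAC and RNU6ATAC, RNAs of the minor spliceosome, RNVU1-19, a variant U1 RNA, and RPPH1, the RNA of RNase P, were higher in the same way. RNU4ATAC was listed at 0 in both references and RNU6ATAC in the Jeko control, so no fold is given. RNU6ATAC was at 19.0 FPKM in sgRNA 1 and 7.52 in sgRNA 2, with 7.54 in the second reference library, which thus overlapped the sgRNA libraries. These RNAs lack the poly(A) tails of mRNA, and RNAs shorter than a fragment have unreliable FPKM. Noncoding host genes of small nucleolar RNAs went the other way. Of 15 SNHG members, a group chosen after their values were seen, 14 were lower in both sgRNA libraries (38.1% of all members were) and 6 were called lower (0.46% of all members were), with medians of −1.18 and −0.73. After length adjustment 11 of the 15 were lower in both, with medians of −1.12 and −0.68. SNHG3 was at 46.5 FPKM and then 17.7 and 9.68, and SNHG20 at 10.4 and then 3.13 and 3.23. RPARP-AS1, an antisense RNA (14.3, then 4.49 and 3.99), and the nuclear paraspeckle RNA NEAT1 (23.1, then 11.2 and 9.98, with 44.9 in the second reference library) were lower too. Without stated strand, reads of an antisense RNA and its partner gene cannot be told apart.

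Subunits of the mitochondrial respiratory chain and ATP synthase were lower than in the Jeko control almost throughout. Of 78 oxidative phosphorylation members, 68 were lower in both sgRNA libraries and 0 higher, and none was called at 2-fold. That share of 87.2% stands against 38.1% of all members and 76.2% of the shortest transcripts. The medians were −0.26 and −0.67, and −0.11 and −0.53 against the second reference library, and 48 of the 78 lay below both references in both sgRNA libraries (29.5% of all members did). These transcripts are short, with a median of 876 nucleotides, and after length adjustment the medians were −0.05 and −0.32, with 42 lower in both and 9 higher. NDUFA11 of complex I was at 291 and 300 FPKM in the references and 179 and 165 with guides, UQCRQ of complex III at 93.1 and 91.9 against 57.2 and 47.3, and COX6A1 of complex IV at 1239.5 and 1220.5 against 772 and 676. In those the reduction was present against both references and after adjustment. Mitochondrial ribosomal proteins were similar before adjustment, with 61 of 76 lower in both (76.2% of the shortest transcripts were) and medians of −0.28 and −0.59. After length adjustment the medians were 0.02 and −0.23, so the list was then not lower in sgRNA 1. MRPL41 was at 19.5 FPKM and then 8.31 and 10.1. Of 35 proteasome members 28 were lower in both (80.0%, where 76.2% of the shortest transcripts were), PSMB6 at 240 FPKM and then 137 and 122, and the medians of −0.29 and −0.43 became −0.08 and −0.11.

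The cytosolic ribosomal proteins, though short, differed little from the control on the median. Their medians were −0.08 and 0.00, with 23 of 81 higher in both sgRNA libraries and 37 lower, at a median length of 887 nucleotides. After length adjustment the medians were 0.19 and 0.40, with 61 higher in both (33.1% of all members were) and 10 lower, so their direction turns with the adjustment. RPL26 was at 5862 FPKM and then 7235 and 7811, and RPS9 at 2844 and then 1889 and 2047. Translation factors were mixed, 20 of 42 higher in both and 12 lower. EIF4G3, a scaffold of the cap-binding complex, was called higher at 6.29 FPKM and then 14.7 and 13.6, and EIF4EBP1, which holds back cap-dependent translation, was lower at 199.8 and then 75.4 and 135.

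Chromatin modifiers have the longest transcripts of the lists, with a median of 8485 nucleotides, and 28 of 37 were higher in both sgRNA libraries (75.7%). That share is close to the 73.3% of the longest group of members by length, against 37.0% of all members. KMT2E, a SET-domain protein, was called higher, at 7.60 and 9.63 FPKM in the references and 22.2 and 19.5 with guides. NCOR1, a nuclear receptor co-repressor, was at 8.92 and 9.72 against 17.0 and 17.6. The medians of 0.47 and 0.50 became 0.05 and 0.11 after length adjustment, with 16 higher in both and 9 lower. EZH2 and EED, of the Polycomb repressive complex, were lower, EZH2 at 68.8 FPKM and then 57.8 and 39.7. Regulators of mRNA decay were higher at 19 of 23, and RC3H2, an RNA-binding ubiquitin ligase that shortens the life of immune mRNAs, was called higher at 1.80 and 2.22 FPKM in the references against 6.88 and 7.66. RC3H2 was at 1.03 and 1.19 after length adjustment, while the list's medians of 0.26 and 0.42 became 0.12 and 0.08. RC3H2 reached the minimum of 5 FPKM only through the sgRNA libraries. Splicing factors were split, 15 of 56 higher in both and 23 lower, SRRM1 at 13.6 FPKM and then 43.7 and 23.7 and SNRPB at 578 and then 329 and 337.

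**Figure D3:**
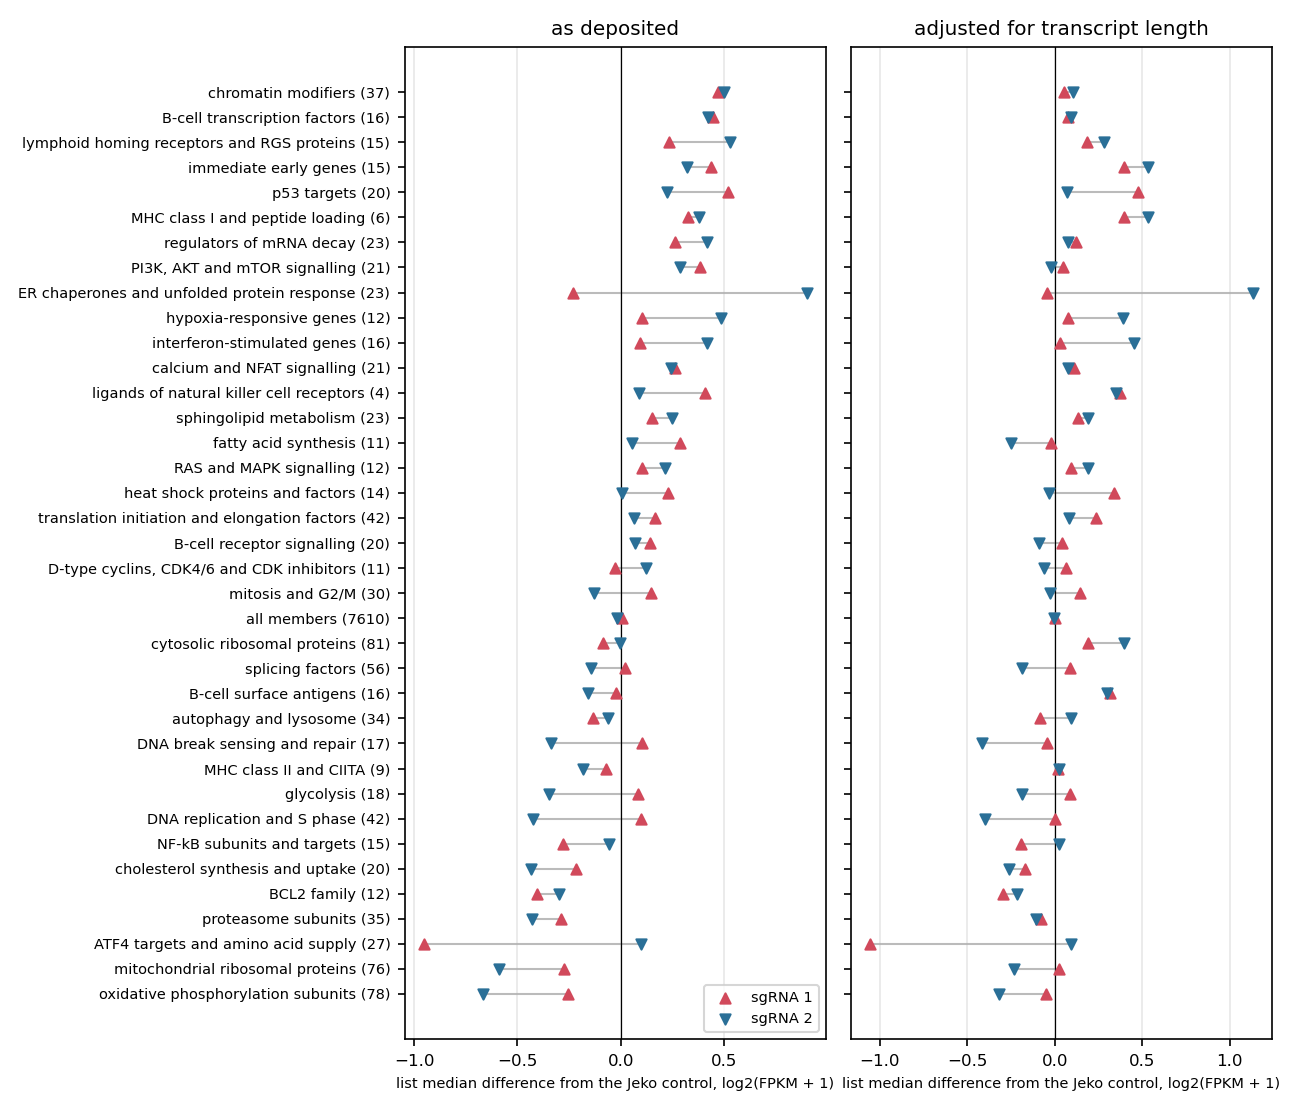
Median difference from the Jeko control on the log2(FPKM + 1) scale (horizontal axis) for each gene list with at least 4 members (number in brackets), in sgRNA 1 and sgRNA 2, as deposited (left) and adjusted for transcript length (right). Chromatin modifiers move from 0.47 and 0.50 to 0.05 and 0.11, immediate early genes from 0.44 and 0.32 to 0.40 and 0.53, and the guides are far apart in the ER chaperones and the ATF4 targets.

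Targets of p53 were higher at 13 of 20 members in both sgRNA libraries (65.0%, against 37.0% of all members) and lower at 1. The medians were 0.52 and 0.23, 0.48 and 0.07 after length adjustment, and 0.67 and 0.25 against the second reference library. ZMAT3, an RNA-binding protein, was called higher at 2.07 and 1.87 FPKM in the references and 10.1 and 5.20 with guides. ZMAT3 reached the minimum of 5 FPKM only through the sgRNA libraries. CDKN1A, the cell-cycle inhibitor p21, was at 117 and 158 FPKM against 186 and 202, and POLH, a translesion polymerase, at 4.92 and 4.29 against 10.3 and 7.44. SESN2, which is also an ATF4 target, was lower, at 50.5 FPKM and then 9.20 and 38.5. DNA replication genes differed between the guides, with medians of 0.10 and −0.43, and E2F1 was lower in both, at 81.7 and then 47.5 and 40.2. Mitotic genes had 12 of 30 higher in both and 9 lower. CDK4, the partner of cyclin D1, was at 296 FPKM and then 230 and 221, and BCL2 at 39.1 and then 46.6 and 86.8.

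Chaperones of the cytosol were higher at their leading members. HSPA8, the constitutive HSP70 (GRCh37 chromosome 11, 122928197 to 122933938), was at 223 FPKM in the Jeko control and 158 in the second reference library, against 808 in sgRNA 1 and 441 in sgRNA 2 (2.00 and 1.16 after length adjustment). DNAJA1 and DNAJB1, its co-chaperones, were at 71.0 and 52.5 FPKM in the references against 233 and 134, and at 25.0 and 24.6 against 45.2 and 44.1. All of them lay above both references in both sgRNA libraries, and more so in sgRNA 1 at the first and second of them. The list had medians of 0.23 and 0.01 (0.34 and −0.03 after length adjustment), with 7 of 14 members higher in both and 2 lower, among them the small heat shock protein HSPB1 at 459 and then 279 and 205, so it did not move as a whole. The upstream bases of HSPA8 are shown because the heat shock element GAANNTTCNNGAA stands in them in a pair, in capitals (1 match reads on the other strand; RefSeq, GRCh38.p14, chr11:123062137-123062386, minus strand, 250 bases up to the transcription start).
HSPA8: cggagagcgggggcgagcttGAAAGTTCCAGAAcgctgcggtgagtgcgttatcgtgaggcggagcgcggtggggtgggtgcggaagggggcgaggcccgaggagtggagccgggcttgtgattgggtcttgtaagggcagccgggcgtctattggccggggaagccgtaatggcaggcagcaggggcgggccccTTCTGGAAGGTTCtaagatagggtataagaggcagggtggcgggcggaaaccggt
This element was found on either strand in 0.439% of the 27305 promoters and in 0.319% of those of members. In the heat shock list it was found in 2 of 13 promoters, those of HSPA8 and CHORDC1.

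The genes of the unfolded protein response did not move alike in the guides. All 23 listed genes were members, and 15 differed in opposite directions in sgRNA 1 and sgRNA 2, with medians of −0.23 and 0.90 (−0.04 and 1.13 after length adjustment). HSPA5, the main chaperone of the endoplasmic reticulum, was at 114 FPKM in the Jeko control, 104 in sgRNA 1, 333 in sgRNA 2 and 143 in the second reference library. HERPUD1, of ER-associated degradation, was at 122, then 38.3 and 167, with 162 in the second reference library. In these genes sgRNA 2 was the high library and sgRNA 1 lay near or below the references. The 7 members higher in both included ERN1, the sensor IRE1, at 4.83 and then 8.54 and 34.4, the lectin chaperone CANX at 120.4 and then 181 and 325, and PDIA4 at 78.2 and then 111 and 188. The upstream bases of HSPA5 show the ER stress response element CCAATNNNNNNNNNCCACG in capitals (RefSeq, GRCh38.p14, chr9:125241344-125241593, minus strand, 250 bases up to the transcription start), since of the 3 motifs searched it is the one found in this list.
HSPA5: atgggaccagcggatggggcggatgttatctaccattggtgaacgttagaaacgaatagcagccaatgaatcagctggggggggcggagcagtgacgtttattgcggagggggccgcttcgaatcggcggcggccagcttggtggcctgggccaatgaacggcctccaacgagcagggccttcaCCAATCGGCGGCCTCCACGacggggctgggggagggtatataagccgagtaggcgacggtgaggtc
The element was found on either strand in 6 of 22 promoters of the list (27.3%). It was found in 0.0806% of the 27305 promoters and in 0.176% of the 6265 promoters matched to members. The 6 genes were HSPA5, HSP90B1, CALR, CANX, XBP1 and CRELD2, of which CANX and HSP90B1 were higher in both guides and the others lower in sgRNA 1 and higher in sgRNA 2. A match is a description of letters only.

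ATF4 targets were low as a group in sgRNA 1, with a median near that of all members in sgRNA 2. The medians were −0.95 and 0.10 (−1.05 and 0.09 after length adjustment), with 13 of 27 members lower in both sgRNA libraries and 2 higher. DDIT3, the stress factor CHOP, was lower in both, at 237 FPKM in the Jeko control, 21.2 in sgRNA 1, 127 in sgRNA 2 and 372 in the second reference library. TRIB3, a pseudokinase induced by ATF4, was at 219, then 34.9 and 256, and PSAT1, an enzyme of serine synthesis, at 83.1, then 18.5 and 72.8. The serine phosphatase PSPH (64.7, then 27.3 and 42.8) and the tRNA ligase gene CARS (47.8, then 22.3 and 32.1) were lower in both, with 67.0 and 62.7 FPKM in the second reference library. The list medians of the 2 guides were thus far apart here, as in the unfolded protein response, and the difference between the guides was not tested. TRIB3, PSAT1, HSPA5 and HERPUD1 were picked after their values were seen.

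**Figure D4:**
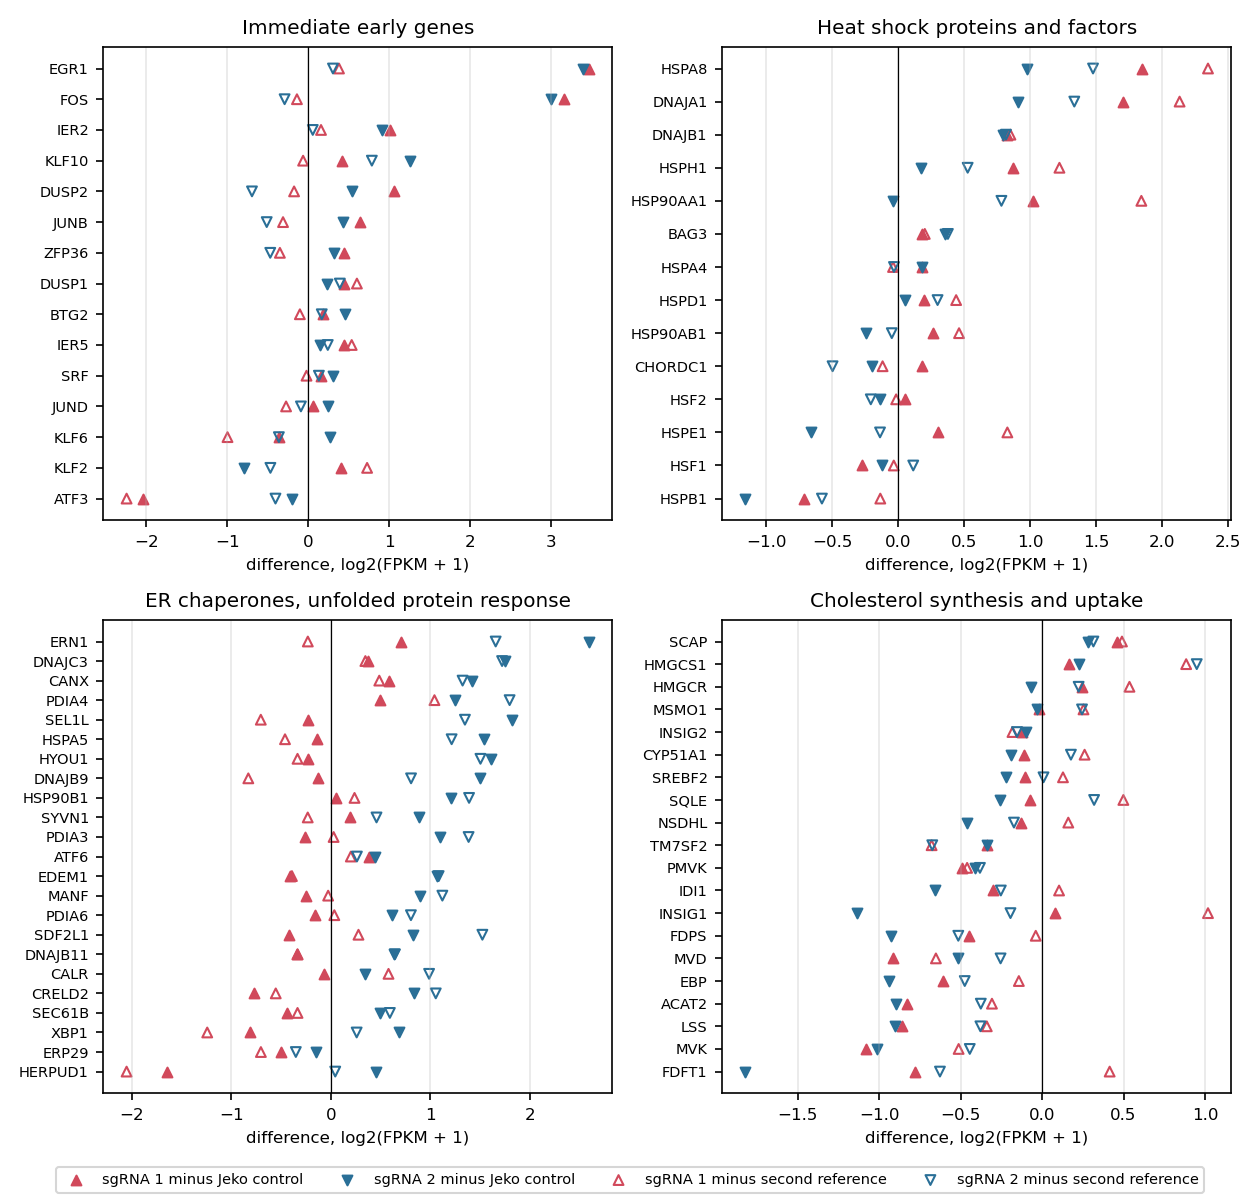
Difference of each member on the log2(FPKM + 1) scale (horizontal axis) from the Jeko control (filled) and from the second reference library (open) in sgRNA 1 (upward triangles) and sgRNA 2 (downward triangles) for 4 gene lists. EGR1 and FOS are far from 0 only for the filled points, HSPA8 and DNAJA1 for all 4, most ER chaperones only for sgRNA 2, and most cholesterol genes are left of 0 for the filled points.

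The remaining lists gave smaller or divided differences. Fatty acid synthesis had 6 of 11 members higher in both and 1 lower, with medians of 0.29 and 0.05 that became −0.02 and −0.25 after length adjustment. Glycolysis had 5 of 18 higher in both and 5 lower, GAPDH at 4507 FPKM and then 4071 and 3039. Hypoxia-responsive genes were higher in both at 7 of 12, HIF1A at 7.86 and 7.82 FPKM in the references and 18.5 and 15.3 with guides, and the list's medians against the second reference library were −0.17 and 0.05. Interferon-stimulated genes were higher in both at 8 of 16 and lower at 4, TRIM22 at 9.61 and then 32.1 and 16.0. Autophagy and lysosome genes had 6 of 34 higher and 13 lower, TFEB, their transcription factor, at 23.1 and then 11.3 and 17.0. DNA break sensing and repair had 5 of 17 higher and 7 lower. The BCL2 family had 2 of 12 higher and 5 lower, D-type cyclins and their kinases and inhibitors 4 of 11 each way, and ligands of natural killer cell receptors 2 of 4 higher and 1 lower. Over all 37 lists, which hold 918 distinct members, 29 had medians of the same sign in both guides and 8 of opposite sign. Of the list members, 12 were called higher (1.31%, against 0.867% of all members) and 6 lower (0.654%, against 0.46%). The lists were chosen with earlier results of these data known. Called members such as EGR1, FOS and UGCG reached the minimum of 5 FPKM only through the sgRNA libraries. These shares are therefore descriptions and show no excess in the lists.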

How the data were processed

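The series holds 6 libraries, made from total RNA with an Illumina TruSeq RNA kit, per the labels' protocols. The submitters' processing notes name TopHat and hg19, and the program and annotation behind the deposited FPKM values, and any use of strand, are not given in the sources used here. FPKM is scaled by the authors per kilobase and to the mapped fragments, so a larger share for some genes lowers the values of the others. Of the summed FPKM, members held 69.3% in the control library, 58.1% in sgRNA 1, 59.3% in sgRNA 2 and 61.5% in the second reference library. The share thus set the Jeko control apart and did not divide guides from references. The median FPKM of members was 17.7, 17.8, 17.6 and 17.6 in the same order.

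Groups came from the labels. Differences were taken as log2(FPKM + 1). Members and gene lists were chosen with earlier results of these data known. limma 3.58.1 (R 4.3.3) with a mean-variance trend was fitted to all 7912 genes whose Jeko mean reached 5 FPKM, small RNAs included, with Benjamini-Hochberg adjustment and a threshold of 0.05, and was tested on simulated data. Named genes were NR4A1, PLCG2, UGCG, RGS1 and NCR3LG1, the 12 higher and 12 lower members with the largest smaller difference of the 2 guides, the 5 each way after length adjustment, and up to 3 each way per list. Some genes that this rule names are not reported here. Length was that of the canonical GENCODE transcript (release for GRCh37), found for 7506 members (98.6%), 7074 by symbol and 432 by a RefSeq synonym, and coordinates are from the same annotation. Promoters were the 250 bases before the first RefSeq start listed per gene. Alternatives were another pseudocount, filter, fold, scaling, reference and left-out library. The Rec-1 sgRNA libraries were used only to check labels.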

Additional observations from a re-analysis of the deposited data

How the results depend on the processing

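The count of 101 members called at 2-fold in both guides was 161 with a minimum mean of 1 FPKM, 29 with one of 20, 51 after length adjustment, 750 at 1.5-fold, 16 at 3-fold and 66 against each of the 2 controls. It was 138 with a pseudocount of 0.1, and with either sgRNA library left out between 301 and 426. With the second reference alone, an alternative chosen after seeing the data, 146 were called, 71 higher and 75 lower against 66 and 35. limma against the Jeko control called 1 member, and 2 with a pseudocount of 0.1, 0 with a minimum of 1 FPKM, 0 without a mean-variance trend (544 had an unadjusted p under 0.05 with it) and 4 (EGR1, FOS, GPX1 and RMRP) after length adjustment. EGR1, FOS and GPX1 reached the minimum of 5 FPKM only through the side where they were high. The limma fit against the Jeko control has no residual degree of freedom once an sgRNA library is left out, so no value is given. limma against both references called 2 members, 4 with a pseudocount of 0.1, 4 with a minimum of 1 FPKM, 1 with one of 20, and between 1 and 3 with a library left out, the lone sample of a group then being assumed to vary like the other group. The NR4A1 difference of −0.44 was −0.32 after length adjustment, −0.86 against the mean of both references and −1.29 against the second alone, and between −0.52 and −0.36 with a guide left out.

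Against the second reference alone the median of the guides' mean turned sign in 11 of 37 lists, after length adjustment in 5, against the mean of both references in 7, and with sgRNA 1 or sgRNA 2 left out in 3 and 7. Among lists whose median lay beyond the spread of the guides with the same sign in both, and named members called at 2-fold, these turned. Against the second reference alone the medians were −0.0025 for B-cell receptor signalling, −0.067 for homing receptors and RGS proteins and −0.047 for natural killer cell ligands, and the differences −0.21 for FOS and 0.29 for CD24. After length adjustment the medians were −0.051 for fatty acid synthesis and 0.030 for autophagy and lysosome. Of the lists within the spread of the guides, hypoxia-responsive genes went from 0.19 to −0.070 and DNA replication from −0.14 to 0.23 against the second reference alone, and the cytosolic ribosomal proteins from −0.040 to 0.30 after length adjustment. The cause was not tested. No paired analysis was possible because there was a single Jeko control library and nothing pairs it with either guide.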

Other observations

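Members on chromosome 18 differed between the guides after length adjustment, with a median of −0.16 in sgRNA 1 and 0.18 in sgRNA 2 over 111 members, and −0.05 and 0.29 against the second reference library. Every other chromosome had medians within 0.11 of 0 against the Jeko control. The 1501 members of highest GC content (the top group of 5) had length-adjusted medians of −0.13 and −0.10. These patterns were noticed in the data and no test was made of them.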
